A study of Mus musculus with 2 samples.

Results

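The genes described here are 32 factors of the endoplasmic reticulum (ER), its chaperones, disulfide isomerases, stress sensors and degradation machinery. They were taken by name: every non-control probe whose gene name on the array is one of the 32 was used, out of 56603 probes on the array. The array has probes for 37073 gene names. All 32 had at least 1 probe that the scanner software marked as well above background on each of the arrays, among 23948 genes measured that way. Brain RNA of mice at postnatal day 10 was hybridised to 1-colour Agilent arrays, 1 array for a GPHR F/F;Nes sample and 1 for the control, GPHR F/F (n = 1 per group). Both were of the strain C57BL/6J and both carried the GPHR F/F alleles, so the genotypes differed in Nes alone as the labels give it. By the usual naming of mouse alleles F/F stands for a pair of loxP-flanked copies and Nes for a Cre recombinase under the nestin promoter, which acts in neural progenitors and their progeny and leaves microglia and most vessel cells with the gene. The labels spell out neither, and do not say whether RNA of several animals was pooled. The name GPHR stands for Golgi pH regulator, a channel protein that lets anions cross Golgi membranes.

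Proteins that enter the secretory pathway fold in the ER with the help of the Hsp70 chaperone BiP (Hspa5), its co-chaperones, the lectin chaperones calnexin and calreticulin, and enzymes that form disulfide bonds. When unfolded proteins accumulate, the membrane sensors IRE1 (Ern1), ATF6 and PERK start the unfolded protein response: IRE1 splices the mRNA of Xbp1 into the form that encodes an active transcription factor, ATF6 is cut in the Golgi to release another, and PERK slows translation. ATF6, together with the CCAAT-binding factor NF-Y, acts through the ER stress response element (ERSE), and XBP1 also drives genes for degradation of misfolded proteins. Many of the resident chaperones carry a C-terminal retrieval signal and are returned from the Golgi by KDEL receptors.

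Some of these genes hold the element by which ATF6 acts in their promoters, and the stretches below show where its letters lie in members whose array values are contrasted later. The RefSeq promoter table (build GRCm38.p6, 250 bases before to 50 after each start site) held 28 of the 32 members, in 30 windows, with Ero1lb and Vimp found under their current symbols Ero1b and Selenos. The ERSE was searched on both strands as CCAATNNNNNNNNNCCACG and was present in 10 members, against 37 of all 27025 genes in the table (0.119% of 32851 windows). The variant ERSE-II, ATTGGNCCACG, was present in 2 members, Herpud1 and Dnajb11, against 12 genes in all (0.0365% of windows). The UPRE core TGACGTGG, a binding site of XBP1, was in no member's window and in 0.676% of all windows, which says only that these letters are absent from 250 to 50 bases around the start. Capitals mark the fixed letters of the motif, each stretch is written 5′ to 3′ on the strand that carries the motif, and 15 bases are shown on either side.

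Hspa5, chr2:34772010-34772058, plus strand: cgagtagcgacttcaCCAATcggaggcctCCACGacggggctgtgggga

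Dnajc3, chr14:118937812-118937860, plus strand: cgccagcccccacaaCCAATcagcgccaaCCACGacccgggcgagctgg

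Creld2, chr15:88819505-88819553, minus strand: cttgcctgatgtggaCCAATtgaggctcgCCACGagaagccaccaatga

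Derl3, chr10:75893227-75893275, minus strand: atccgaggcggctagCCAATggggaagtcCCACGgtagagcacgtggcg

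Canx, chr11:50325785-50325833, minus strand: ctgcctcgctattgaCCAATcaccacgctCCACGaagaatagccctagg

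Pdia6, chr12:17266476-17266524, plus strand: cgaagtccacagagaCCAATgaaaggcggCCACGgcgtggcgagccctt

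Syvn1, chr19:6046517-6046565, plus strand: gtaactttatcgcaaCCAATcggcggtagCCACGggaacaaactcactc

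Herpud1 (ERSE-II), chr8:94386362-94386402, plus strand: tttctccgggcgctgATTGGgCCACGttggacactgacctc

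The motif lay 65 to 47 bases upstream of the Hspa5 start site, 105 to 87 bases upstream in Dnajc3, 126 to 108 in Creld2, 156 to 138 in Derl3, 145 to 127 in Canx, 98 to 80 in Pdia6 and 44 to 26 in Syvn1. The other 3 genes with an ERSE were Hsp90b1, with 2 copies, Calr and Ero1lb. The ERSE-II of Herpud1 lay 52 to 42 bases upstream of its start site. A match to these letters is a description of the sequence and not a measured binding site.

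Values below are log2 processed signals relative to the 75th percentile of the same array, which was 259.52 units (control) and 173.4 units (GPHR F/F;Nes). A positive difference means a higher value in GPHR F/F;Nes. A level is given as log2 units above or below that percentile. The ± value is computed from the errors that the scanner software gives for each spot. It is technical only, lay between 0.12 and 0.27 for the members, and holds no spread between animals. With 1 array per genotype no test was possible and no difference has a replicate check. "Higher" and "lower" are relative to the 75th percentile. After scaling to 8 spike-in probes, which themselves differed by 0.45 with an SD of 0.35, every member except Derl3 (0.24 ± 0.22) lay below 0. In that scaling 7.43% of all measured genes lay above 0, and the median of all measured genes was -0.96. Gpr89, which encodes GPHR, had a level of -2.58 in the control and -3.11 in GPHR F/F;Nes, a difference of -0.53 ± 0.22. It was measured by 1 probe, which was dim on both arrays. The X-linked Xist was detected only on the array of GPHR F/F;Nes and the Y-linked Ddx3y and Eif2s3y only on that of the control, so the 2 samples differed in sex-linked RNA together with genotype.

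The ER genes did not differ as a block between the 2 brains. Some members, picked here by their values, were 1.35-fold to 1.76-fold higher in GPHR F/F;Nes. They were BiP, GRP94 (Hsp90b1), calreticulin, Dnajc3, Sdf2l1, Pdia4 and Creld2. After spike-in scaling these genes lay below 0. Calreticulin (Calr) had the smallest difference of them, and 24.6% of all measured genes had a larger one. Xbp1, Herpud1, Os9 and Canx lay below 0, and Wfs1 was 1.59-fold lower. The median over the 32 members was 0.12, with 19 above 0 and 13 below, beside a median of 0.07 and 57.0% above 0 for all measured genes. Derl3 was the 1 member at least 2-fold higher (3.12% of the 32), whereas 7.93% of all measured genes were. No member was at least 2-fold lower, and 1.37% of all genes were. At 1.5-fold, 6 members were higher (18.8%, against 18.1% of all genes) and 1 was lower (3.12%, against 5.69%). The shares past either fold were thus near or below those of all genes. In bulk tissue, fewer cells of a type and less RNA per cell cannot be told apart.

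**Figure D1:**
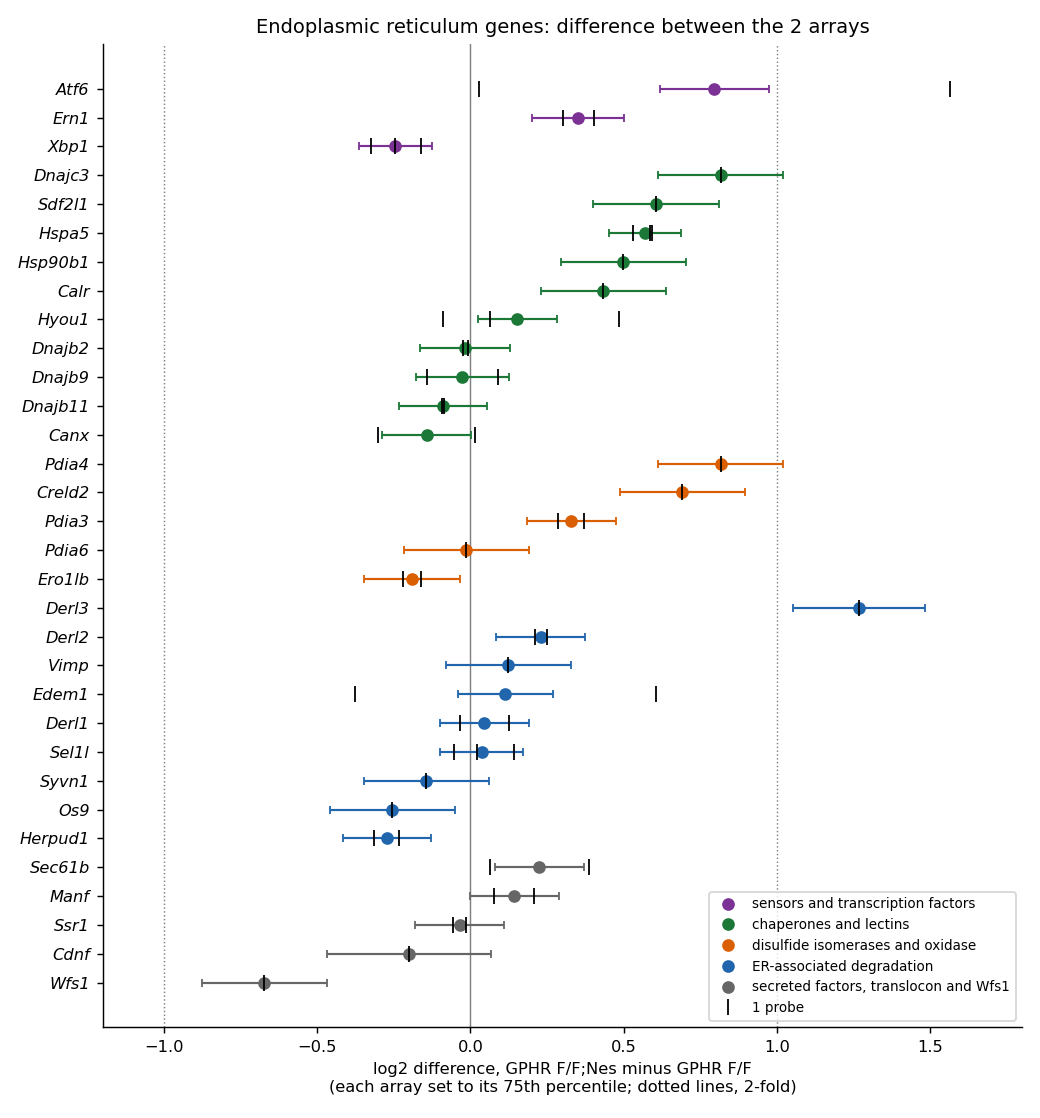
Difference of each of the 32 members between the 2 arrays, on the log2 scale with each array set to its 75th percentile. Points are means over measured probes, coloured by class, bars are the scanner software's technical error, ticks are single probes and dotted lines mark 2-fold. Derl3 (1.27) lies past the 2-fold line and Wfs1 (-0.67) is lowest, and the 2 probes of Atf6 and of Edem1 lie far apart. After spike-in scaling every point except Derl3 lies below 0, and 7.43% of all measured genes lie above 0.

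Ern1 and Atf6, the sensors among the members, and the transcription factor Xbp1 did not go together. Eif2ak3, which encodes the sensor PERK and is no member, was at 0.13 ± 0.20 with 1 probe. Ern1, the kinase and endoribonuclease that splices Xbp1, had a level of -1.83 in the control and -1.48 in GPHR F/F;Nes, 0.35 ± 0.15 higher, with its 2 measured probes at 0.30 and 0.40. The probe at 0.40, designed to the curated mRNA, was dim, at 34.12 units (control) and 30.15 units (GPHR F/F;Nes). With each array centred on its median instead of the percentile (median centring), Ern1 was at 0.076. Its direction held by little in that setting, where the median of all measured genes was -0.20. Xbp1, whose transcript IRE1 splices, had a level of 1.75 in the control and 1.51 in GPHR F/F;Nes. Its 3 probes, at 4957, 415.04 and 323.37 units in the control, all lay below 0, from -0.33 to -0.16, and gave a mean of -0.24 ± 0.12. The array names none of these probes as specific to the spliced form, so the values are those of total Xbp1 RNA as far as the design tells. The deposited coordinates place the brightest of them at chr11:5425816-5425875 of mm9.

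For Atf6 the probes disagreed. The probe designed to the curated mRNA measured 207.55 units (control) and 141.36 units (GPHR F/F;Nes), a difference of 0.028. The second probe, designed to an Ensembl transcript, had 10.72 and 21.16 units, a difference of 1.56. The gene's mean of 0.80 ± 0.18 therefore rested on the dim probe, and with probes of curated mRNAs alone the value was 0.028. The sensor class had a median of 0.35 over 3 genes, which is the value of Ern1, and 0.028 where only curated mRNA probes were used.

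Among the chaperones, the Hsp70 and Hsp90 proteins of the ER lumen and several of their partners were higher, whereas other J-domain co-chaperones were near 0. BiP (Hspa5), the central chaperone that also holds the sensors inactive, had a level of 3.36 in the control and 3.93 in GPHR F/F;Nes. Its difference of 0.57 ± 0.12 (1.48-fold) was alike over 3 probes, at 0.53, 0.59 and 0.59 (SD 0.035), the brightest of them at chr2:34631913-34631972 of mm9. That probe gave 9679 (control) and 9714 (GPHR F/F;Nes) units before scaling, so the difference arises with the scaling to the 75th percentile. Before scaling, Hsp90b1 (8968 units in the control and 8461 in GPHR F/F;Nes) and Calr (2967 and 2676 units) read lower in GPHR F/F;Nes. So did the measured probes of Pdia3 and Ern1. The probes of Dnajc3, Sdf2l1, Pdia4, Creld2 and Derl3 read higher there before scaling. Of all measured genes, 18.7% had a larger difference than BiP.

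Hsp90b1, the ER form of Hsp90, had a level of 5.11 in the control and 5.61 in GPHR F/F;Nes, 0.50 ± 0.20 higher. Dnajc3 (p58IPK), a co-chaperone that delivers clients to BiP, had the largest difference of the class, with levels of 0.047 and 0.86 (0.82 ± 0.20, 1.76-fold). Sdf2l1, which works with J-domain proteins of the BiP cycle, had levels of -1.43 and -0.83 (0.61 ± 0.21, 1.52-fold). Each of these 3 genes was measured by 1 probe, so only the technical error bears on it. All 3 stayed above 0 under every setting run other than spike-in scaling, with lowest values of 0.22 for Hsp90b1, 0.54 for Dnajc3 and 0.32 for Sdf2l1. Settings that choose among probes could not change these 3 genes.

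The J-domain co-chaperones Dnajb9 (ERdj4, level -0.30 in the control and -0.33 in GPHR F/F;Nes), Dnajb11 (ERdj3, 2.86 and 2.77) and Dnajb2 (a co-chaperone abundant in neurons, 0.54 and 0.53) differed by -0.026 ± 0.15, -0.090 ± 0.14 and -0.017 ± 0.15. Dnajb9 and Dnajb11 are themselves targets of the unfolded protein response. Hyou1, the ER Hsp110 that exchanges nucleotides on BiP, had levels of -2.91 and -2.75 and a difference of 0.15 ± 0.13, but its 3 probes ran from -0.090 to 0.48. It lay at -0.12 with median centring and at -0.10 after quantile normalization.

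The lectin chaperones, which hold glycoproteins in the folding cycle, did not share a direction. Calr, soluble calreticulin, had levels of 3.52 in the control and 3.95 in GPHR F/F;Nes (0.43 ± 0.20, 1.35-fold). Canx, membrane-bound calnexin, had levels of 5.49 and 5.35 (-0.14 ± 0.14), with its 2 probes at -0.30 and 0.015. The class of 10 had a median of 0.29 with 6 genes above 0. That median was 0.017 with median centring, and -0.74 after spike-in scaling.

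**Figure D2:**
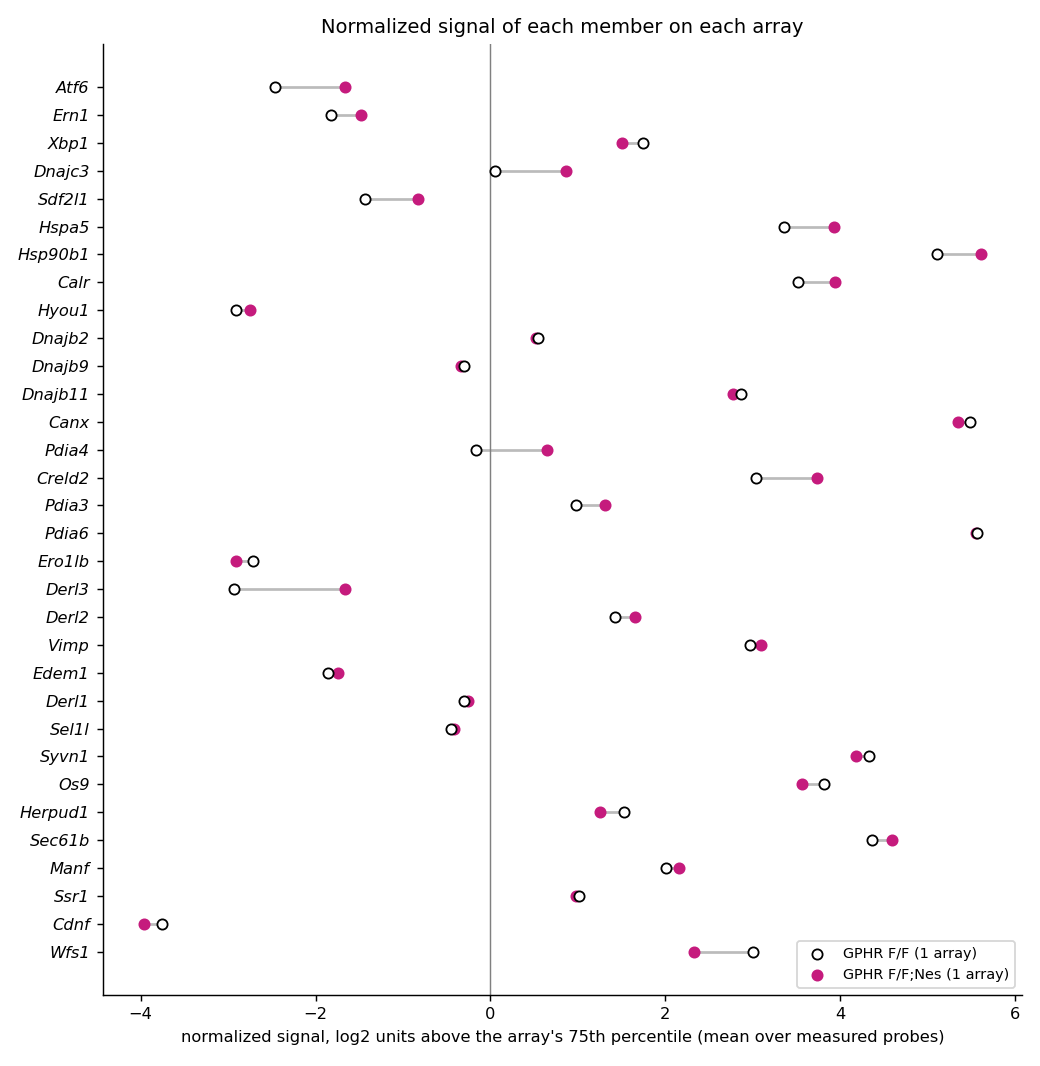
Normalized signal of each member on the 2 arrays, in log2 units above the array's 75th percentile (mean over measured probes; open circles, GPHR F/F; filled circles, GPHR F/F;Nes; 1 array each). Levels of different genes come from different probes and are not comparable with each other. The longest lines are those of Derl3 (-2.94 and -1.67), Dnajc3 (0.047 and 0.86) and Pdia4 (-0.17 and 0.65). After spike-in scaling, which moved all differences down by 1.03, Derl3 alone stayed higher in GPHR F/F;Nes. Of all measured genes, 7.43% did.

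Of the genes for disulfide bonds, 3 were higher and 2 were not. Pdia4 (ERp72), a disulfide isomerase that associates with BiP, had levels of -0.17 in the control and 0.65 in GPHR F/F;Nes, 0.82 ± 0.20 higher (1.76-fold). Creld2, a secreted ER protein with disulfide isomerase activity that is induced by ER stress, had levels of 3.04 and 3.74 (0.69 ± 0.20, 1.61-fold). Pdia3 (ERp57), the isomerase that works with the lectin chaperones, had levels of 0.98 and 1.31 (0.33 ± 0.14), with its 2 probes at 0.29 and 0.37. Pdia4 and Creld2 kept values of at least 0.54 and 0.41 in every setting other than spike-in scaling, and Pdia3 was 0.052 with median centring. Pdia4 and Creld2 each had 1 probe, so settings that choose among probes could not change them.

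Pdia6 (P5), which attenuates the sensors, had levels of 5.57 and 5.56 (-0.013 ± 0.20). Ero1lb, the oxidase that supplies isomerases with oxidising equivalents, had levels of -2.71 and -2.90 (-0.19 ± 0.16), with its 2 probes at -0.22 and -0.16. The class of 5 had a median of 0.33, and 0.052 with median centring.

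Genes for ER-associated degradation, by which misfolded proteins are extracted to the cytosol and destroyed, lay close to 0 apart from Derl3. The 9 members had a median of 0.046, and -0.23 with median centring. Of them 6 lay above 0 (66.7%, against 57.0% of all measured genes) and 3 below. Derl3, the derlin of the retrotranslocation channel that is typical of secretory cells, was dim, at 33.92 (control) and 54.55 (GPHR F/F;Nes) units, measured by 1 probe at chr10:75358606-75358665 of mm9. Its levels were -2.94 and -1.67, a difference of 1.27 ± 0.22 (2.41-fold), and 4.55% of all measured genes had a larger one. It was 1.07 after quantile normalization alone and 0.46 with normexp background correction before it. With each array centred on its median it was 0.99, just short of 2-fold. After spike-in scaling it was 0.24 ± 0.22, beside an SD of 0.35 between the spike-in probes.

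The other derlins were closer to 0. Derl2 had levels of 1.43 and 1.66 (0.23 ± 0.14, probes at 0.21 and 0.25) and Derl1 had levels of -0.30 and -0.26 (0.046 ± 0.15). Vimp, which links derlins to the cytosolic ATPase p97, had levels of 2.97 and 3.10 (0.12 ± 0.20). Derl1, Derl2 and Vimp lay below 0 with median centring, at -0.23, -0.048 and -0.15.

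The core of the ubiquitin ligase complex at the ER membrane showed small differences. Sel1l, its adaptor, had levels of -0.45 and -0.42 (0.037 ± 0.13, 3 probes from -0.053 to 0.14). Syvn1 (HRD1), the ligase, had levels of 4.33 and 4.19 (-0.14 ± 0.20). Os9, the lectin that hands over glycoproteins, had levels of 3.81 and 3.56 (-0.25 ± 0.20). Herpud1, a stress-induced scaffold of the same complex, had levels of 1.53 and 1.25 (-0.27 ± 0.14), with both probes below 0, at -0.31 and -0.23. Edem1, which marks glycoproteins for degradation, had levels of -1.85 and -1.74 and a mean of 0.11 ± 0.16, but its probes pointed in opposite directions, at -0.38 for the brighter and 0.60 for the dimmer.

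The remaining members were a pair of secreted neurotrophic factors, 2 subunits at the translocon and the membrane protein wolframin. Manf, which leaves the ER under stress, had levels of 2.01 and 2.16 (0.14 ± 0.14), and its relative Cdnf had levels of -3.76 and -3.96 (-0.20 ± 0.27), near the background of both arrays at 19.19 and 11.15 units. Sec61b, a subunit of the translocation channel, had levels of 4.37 and 4.59 (0.22 ± 0.14, probes at 0.063 and 0.39), and Ssr1 of the translocon-associated complex had levels of 1.01 and 0.97 (-0.035 ± 0.15). Manf and Sec61b were below 0 with median centring (-0.13 and -0.051).

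Wfs1 was the member with the largest negative difference. It encodes wolframin, an ER membrane protein that is abundant in subsets of forebrain neurons and whose loss causes a syndrome with diabetes and neurodegeneration. Its single probe, at chr5:37357424-37357483 of mm9, gave 2082 units (control) and 873.06 units (GPHR F/F;Nes). The levels were 3.004 and 2.33, a difference of -0.67 ± 0.20 (1.59-fold lower), and 4.08% of all measured genes lay further below. It ranged from -0.95 to -0.55 over the settings other than spike-in scaling. In the same arrays all 10 neuronal markers (Snap25, Rbfox3 and Nefl among them) lay below 0, with a median of -0.24. The sum of their normalized signals, in multiples of the 75th percentile, was 85.8 in the control and 66.0 in GPHR F/F;Nes. The 3 probes of Snap25 ran from -0.84 to 0.87, and Syt1, Stmn2, Gad1 and Gad2 also had probes on both sides of 0. All probes of Rbfox3 and Nefl lay below 0. The part of neuronal RNA in the value of Wfs1 was not tested.

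**Figure D3:**
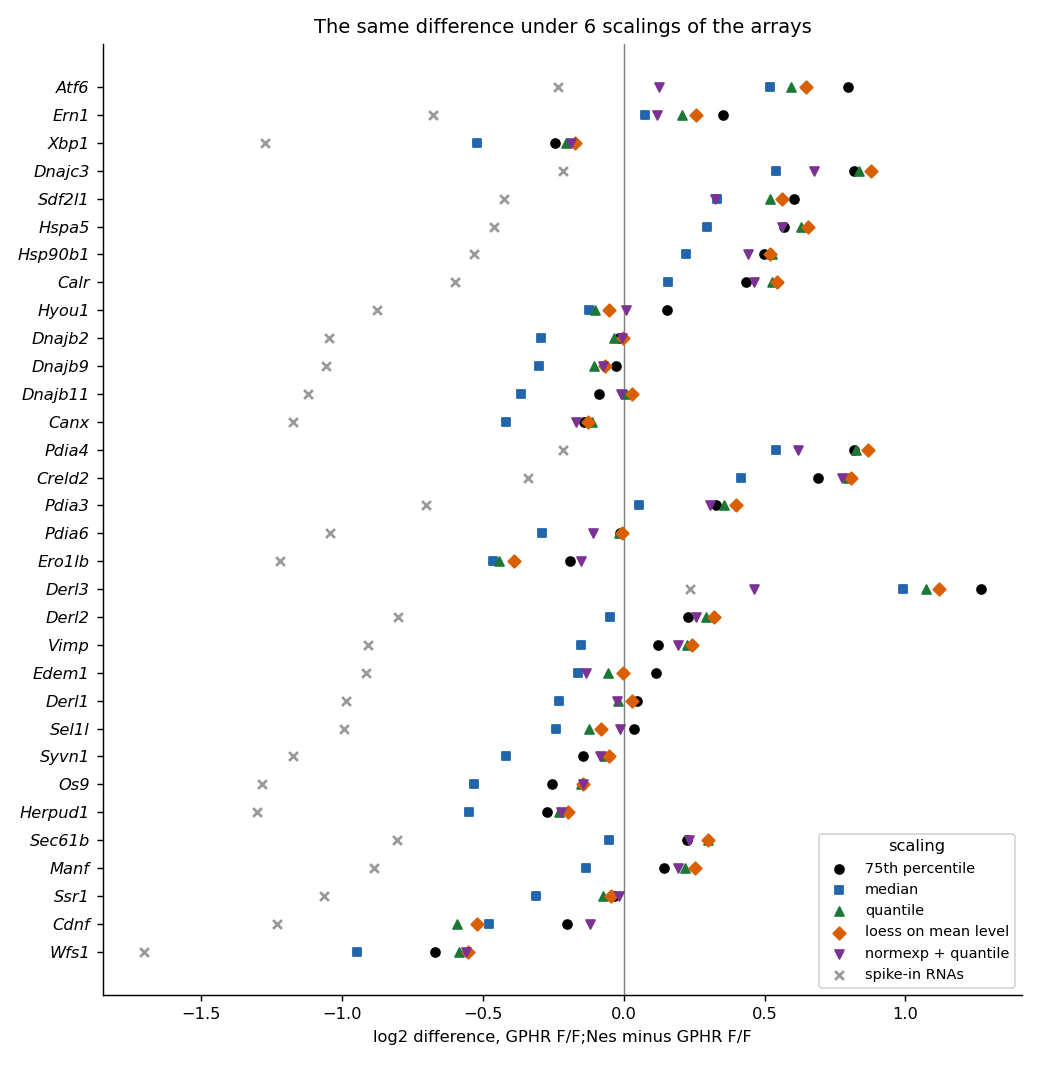
Log2 difference of each member under 6 ways of scaling the arrays; 0 marks equal values. Black circles (75th percentile) and the quantile, loess and normexp values mostly lie close together, blue squares (centring on the median) lie 0.28 lower and grey crosses (spike-in RNAs) 1.03 lower than the black circles. Derl3 alone lies above 0 under all 6, at 0.24 ± 0.22 under spike-in scaling, where 7.43% of all measured genes lie above 0.

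Over 11 alternatives, spike-in scaling left aside, 23 of the 32 members kept 1 sign. Above 0 throughout were 11: Hspa5, Hsp90b1, Calr, Dnajc3, Sdf2l1, Pdia3, Pdia4, Creld2, Derl3, Ern1 and Atf6. Below 0 throughout were 12: Xbp1, Herpud1, Os9, Wfs1, Canx, Syvn1, Ero1lb, Cdnf, Pdia6, Dnajb2, Dnajb9 and Ssr1. For Pdia6, Dnajb2, Dnajb9 and Ssr1 the value lay between -0.035 and -0.013 with the 75th percentile, so their sign carries little. Canx, Syvn1 and Cdnf lay within their technical errors too. At their lowest, Atf6 was at 0.028, Pdia3 at 0.052 and Ern1 at 0.076. Settings that choose among probes could not change the 13 members with 1 measured probe. The remaining 9 of the 32 members crossed 0 in at least 1 setting. Derl2 and Manf were among these, although both of their probes lay above 0 with the 75th percentile. Of the 19 members with several measured probes, 13 had all of them on 1 side of 0, and the median SD between probes was 0.081.

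Members with an ERSE in the promoter window lay on both sides of 0. The 10 such genes had a median of 0.47, and the 16 with a window but neither form of the element had a median of 0.075, with 9 above 0. Of the 10, 6 were higher, from Calr at 0.43 to Derl3 at 1.27, and 4 lay at or below 0, namely Pdia6, Canx, Syvn1 and Ero1lb, the last at -0.19. Of all 13585 measured genes with a promoter window, 7228 lay above 0 (median 0.034), and over all measured genes 57.0% did, so 6 of 10 and 9 of 16 are both near the background share. Both genes with ERSE-II, Dnajb11 and Herpud1, lay below 0. With these joined to the ERSE genes, the 12 members with either form had a median of 0.21, with 6 above 0 and 6 below. Conversely Pdia4 and Sdf2l1, with neither element in these letters, were at 0.82 and 0.61. The median of the ERSE members was 0.19 with median centring, 0.45 to 0.53 in the other settings and -0.57 after spike-in scaling. For the 16 without, the median was -0.20 with median centring and -0.96 after spike-in scaling. These 2 scalings shift all genes by 1 constant, as does the deposited table, so they could not change the order of the 2 medians. After quantile, loess and normexp correction, which could, the medians were 0.53, 0.53 and 0.45 with an ERSE. Without the element they were -0.046, -0.0024 and -0.0115. Among 13 measured genes with an ERSE that are no members, the median was 0.14, with 9 above 0, from Adcy3 at -0.69 to Xlr3b at 1.46. These shares are descriptions, without a test.

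**Figure D4:**
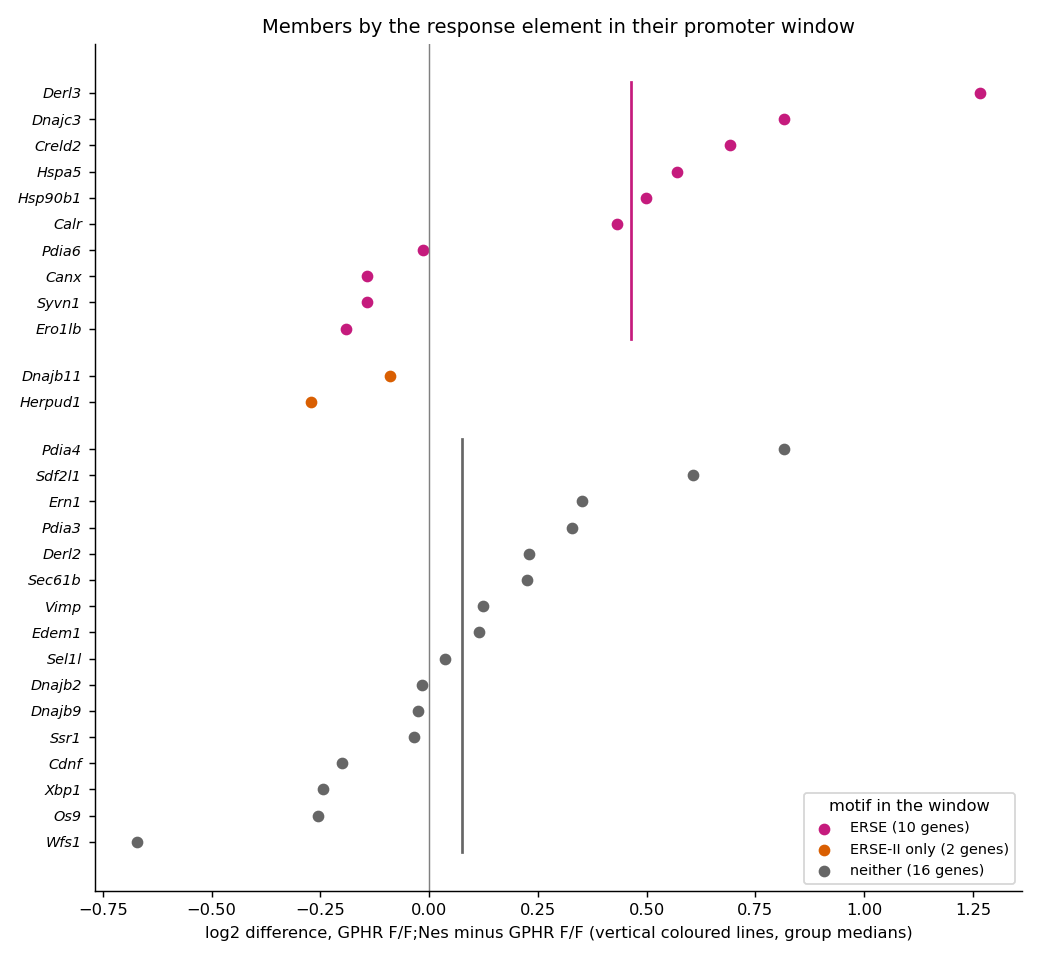
Log2 difference of the 28 members in the promoter table, ordered within groups by the response element found in 250 bases before to 50 after the start site. Each point is 1 gene (mean over its measured probes) and vertical lines are group medians, 0.47 for ERSE and 0.075 for neither. The median of the 12 members with either form of the element was 0.21. In the ERSE group 6 genes lie at 0.43 or above and 4 at or below 0. After spike-in scaling both medians lie below 0, as does that of all measured genes (-0.96).

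Further genes of the same pathways were described from 5 lists of 119 genes. Among 35 measured ER folding factors, the median was 0.098, with 22 above 0 and 2 that were 2-fold higher or more, and no gene was lower by that fold. These are 62.9% above 0 and 5.71% higher by that fold, against 57.0% and 7.93% of all measured genes. The largest differences were those of Rcn3, a calcium-binding ER protein (2.51 ± 0.15, levels -1.16 in the control and 1.35 in GPHR F/F;Nes), and Fkbp7, an ER prolyl isomerase (1.496 ± 0.14, levels -1.11 and 0.39), both with 2 probes in accord. They were followed by the cyclophilin Ppic (0.97 ± 0.20) and by Clgn, a calnexin relative (-0.87 ± 0.21). The medians of the lists other than the KDEL receptors lay below 0 once each array was centred on its median. In that setting the median of all measured genes was -0.20 as well, with 33.6% above 0.

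Other degradation factors had a median near 0, as did those among the members. Of 26 measured, 12 lay above 0 (46.2%, against 57.0% of all measured genes), with a median of -0.027. None differed 2-fold, whereas 7.93% of all measured genes were higher and 1.37% lower by that fold. Bag6 had the largest value (0.67 ± 0.12), but its 4 probes ran from -0.32 to 1.12. The ligase March6 was at -0.53 ± 0.15, Ubxn8 at -0.26 ± 0.20 and the deglycosylating enzyme Ngly1 at 0.26 ± 0.20. Translocon and signal peptide factors had a median of 0.087 over 30 genes, with 63.3% above 0, and none differed 2-fold either. Tram2 (0.72 ± 0.21), the signal recognition particle receptor Srpr (0.69 ± 0.15), the oligosaccharyltransferase subunit Stt3a (0.65 ± 0.11) and the signal peptidase subunit Sec11c (-0.64 ± 0.20) had the largest differences.

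Regulators of the unfolded protein response spread in both directions. Of 22 genes, 14 lay above 0 (median 0.16), 2 were at least 2-fold higher and 1 was 2-fold lower. These are 63.6% above 0, 9.09% higher and 4.55% lower by that fold, against 57.0%, 7.93% and 1.37% of all measured genes. Chac1, a glutathione-degrading target of the PERK branch, had levels of 3.48 in the control and 2.16 in GPHR F/F;Nes (-1.32 ± 0.20). Ern2, the relative of Ern1 found in mucosal epithelia, was dim, with levels of -3.63 and -2.33 (1.30 ± 0.23). The stress-induced Nupr1 was at 1.11 ± 0.21 and the transcription factor Atf3 at 0.93 ± 0.21. Atf4, the main transcription factor below PERK, was chosen after its value was seen: its levels were 5.03 and 4.17 (-0.86 ± 0.14), with probes at -0.92 and -0.79. Ddit3 (CHOP), likewise chosen afterwards, had a mean of 0.77 ± 0.14 from probes at 0.0081 and 1.53.

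All 3 KDEL receptors lay above 0 with the 75th percentile, as did 57.0% of all measured genes, and their median was 0.65. It was 0.38 with median centring, whose shift of -0.28 exceeds the value of Kdelr1, and -0.38 after spike-in scaling. Kdelr3 was 6.14-fold higher (2.62 ± 0.21, levels -2.84 and -0.23), Kdelr2 was 1.57-fold higher (0.65 ± 0.20) and Kdelr1 was at 0.069 ± 0.20.

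**Figure D5:**
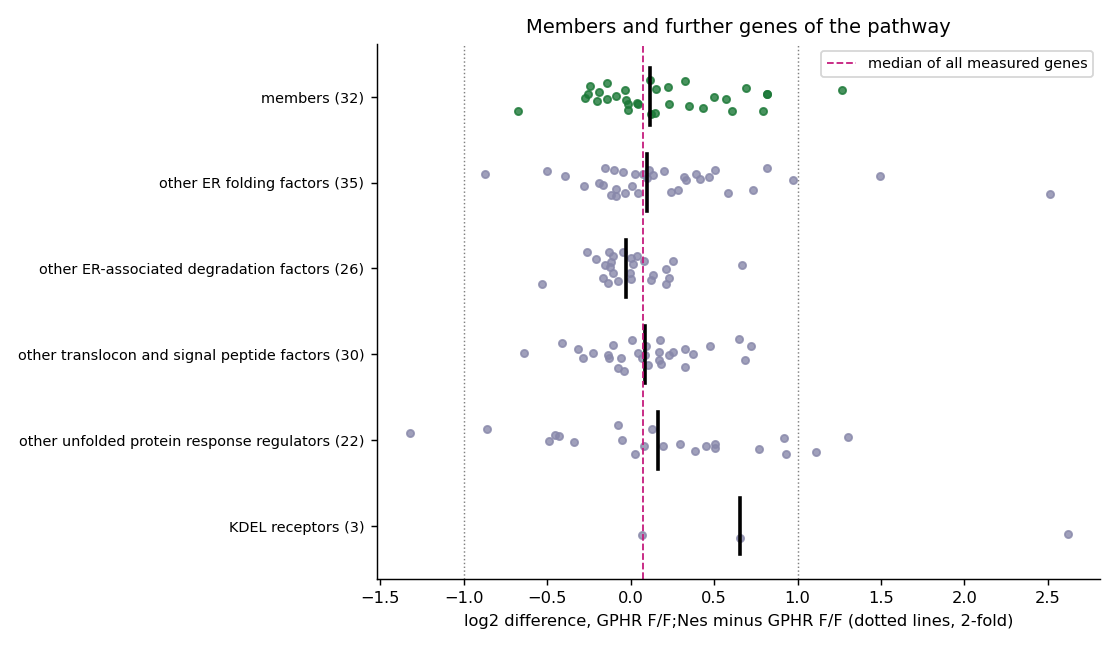
Log2 differences of the 32 members and of 5 further gene lists of the pathway, 1 point per measured gene, with black bars at list medians and the dashed line at the median of all measured genes (0.07); the vertical scatter within a list is for display. Most genes of each list lie within the dotted 2-fold lines; Kdelr3 (2.62) and Rcn3 (2.51) lie farthest to the right and Chac1 (-1.32) farthest to the left. After spike-in scaling every list median lies below 0, as does that of all measured genes (-0.96).

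Markers of several cell types differed between the same 2 samples. Over all measured genes the median was 0.07 and 57.0% lay above 0. Of 10 markers of meninges and fibroblasts, 8 were above 0 (median 1.75), with summed normalized signals of 9.75 in the control and 14.7 in GPHR F/F;Nes. Of the choroid plexus markers, 6 of 10 were measured on both arrays and all 6 lay above 0 (median 1.35, sums 1.27 and 6.58), whereas Kl and Slc4a5 were not above background on either array. Clic6 and Cldn2 were detected in GPHR F/F;Nes only, at least 4.54-fold and 1.55-fold higher there. Of the endothelial and mural markers 7 of 10 were measured, with 6 above 0 (median 1.02, sums 4.0 and 8.45), and Cldn5, Cdh5 and Rgs5 were not above background. Of the microglial markers 8 of 10 were measured, all above 0 (median 1.46, sums 1.79 and 3.19), P2ry12 was not above background, and Tmem119 was detected in GPHR F/F;Nes only, at least 4.60-fold higher. Astrocyte markers had a median of 0.19 (5 of 8 above 0, sums 57.7 and 56.8) and oligodendrocyte markers one of 0.093 (6 of 8, sums 8.47 and 7.36). Of 4 erythrocyte markers only Hba-a1 was measured, at -0.28. All neuronal, astrocyte and oligodendrocyte markers were above background on both arrays of this tissue labelled brain. The part of any of these cell types in the values of Derl3, Creld2, Pdia4 or the KDEL receptors was not tested.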

How the data were processed

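Total RNA of 2 brain samples was measured, 1 array per genotype. Per the submitters' processing notes, scans were read with Agilent Feature Extraction 11.5.1.1. The deposited processed intensity of each spot is on a linear scale, background-subtracted and detrended per the file headers. Deposited flags (0 or 1) mark spots well above background, saturated spots (none here) and outliers. The deposited value table is on the log2 scale and equalled the log2 processed intensity plus 1 constant per array (-8.01 and -7.43, within 0.001 for at least 99.9% of probes; column medians -3.19 and -2.92). The sources used here do not give how the authors set the constants.

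Outlier spots were left out (51 per array), log2 values of repeat spots were averaged per probe, and the 75th percentile over 56603 probes was subtracted on each array. A gene's value is the mean over its probes well above background on both arrays. Array coordinates are on mm9, and which exon or untranslated region a probe meets was not analysed here. Promoter windows come from RefSeq on GRCm38.p6 and were not joined to the array coordinates. Sequences of the proteins were not used here.

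No test was possible, so no p-values are given. The members, classes and lists were chosen with earlier results of these data known. All 32 members are named. Of each pathway list the 4 largest differences are named, and Atf4, Ddit3 and Eif2ak3 were added after their values were seen. Alternatives covered scaling, background correction, the filter on dim probes, the choice of probes and the threshold. The comparison by promoter element was added after the data were seen. Scripts were tested on simulated data for the comparison of both genotypes over 23948 genes, with only replicate-spot noise (SD 0.051): all 67 genes set to 2.5-fold and all 66 set to 4.0-fold passed 2-fold, and 0 of 67 set to 1.5-fold did. Python 3.11.15 (numpy 2.4.6, pandas 2.3.3, matplotlib 3.10.9) and R 4.3.3 with limma 3.58.1 were used.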

Additional observations from a re-analysis of the deposited data

Results flagged for a closer look

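A further Ern1 probe, designed to an Ensembl transcript, entered none of the values above because it was detected on the GPHR F/F;Nes array alone. That array was at least 1.84-fold higher, a bound taken from the lowest detected signal of the control array. The probe read 6.14 (control) and 7.72 (GPHR F/F;Nes) units, beside the lowest signals well above background of 6.28 and 5.06 units. A further 4 of the 60 member probes were above background on neither array, and none was above background in the control alone.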

How the results depend on the processing

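The largest dependence was on scaling. With median centring of each array, a shift of -0.28 for all genes, no member was 2-fold higher (0). The median of all measured genes was then -0.20, and 33.6% of them lay above 0. The medians were then -0.16 for the members, 0.076 for sensors, 0.017 for chaperones, 0.052 for disulfide enzymes, -0.23 for degradation and -0.31 for the remaining members. Those of the further lists were -0.18 for folding factors, -0.30 for degradation, -0.19 for the translocon, -0.11 for regulators and 0.38 for KDEL receptors. After spike-in scaling, which moved all genes by -1.03, 0 members were 2-fold higher and 13 were 2-fold lower. Of all 23948 measured genes, 10984 were then 2-fold lower, and the median of all measured genes was -0.96. The medians were then -0.91 for the members, -0.68, -0.74, -0.70, -0.99 and -1.07 for their classes in the same order, and -0.93, -1.06, -0.94, -0.87 and -0.38 for the further lists. After normexp with quantile normalization 0 members were 2-fold higher and the sensor median was 0.12. The sensor median, over 3 genes, was 0.68 with no filter on dim probes and 0.028 with a stricter filter, with the brightest probe or with curated mRNA probes. The chaperone median was 0.46 with the brightest probe. At 1.5-fold the counts were 6 higher and 1 lower. The cause of these movements was not tested. Of 383 single-gene values over the alternatives, 294 moved by less than the technical error and 89 by more. The 294 include values of genes with 1 probe, which the choice among probes could not move. They also include the values of the deposited table, which shifted all genes by about -0.002. Median centring and spike-in scaling shift all genes by more than the highest technical error of a member (0.27), so every value in those settings counted as moved. Over all genes, 1900 were 2-fold higher and 328 lower in the main setting (85.3% higher). These counts were 1077 and 809 (57.1%) with median centring, 1233 and 565 (68.6%) after quantile normalization, 1388 and 468 (74.8%) after loess correction, 326 and 90 (78.4%) after normexp, and 139 and 10984 (1.25%) after spike-in scaling. They were 5517 and 781 (87.6%) with no filter, 880 and 236 (78.9%) with the stricter one and 905 and 280 (76.4%) with curated mRNA probes. No paired analysis was possible because each group had 1 sample. Signal over background limits Cdnf, Hyou1, Ero1lb, Derl3 and the second probes of Atf6 and Edem1, all under 60 units on both arrays. The dimmest measured probes of Ern1, Dnajb9, Sel1l and Derl1 were under 60 units on both arrays too. Gpr89, measured by 1 dim probe, is limited likewise. The number of arrays limits the precision of every value.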
